A study of Mus musculus with 8 samples.

Results

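Islet libraries of the same genotype differed from each other in a group of nuclear-retained and splicing-related transcripts, and these differences are described here across 6 of the 8 libraries of the study. The 6 were split by the level of *Clk1*, a kinase that phosphorylates splicing factors: 3 libraries at or above 10 reads per kilobase of exon and per 1000000 reads (RPKM) formed the high set, and the 3 below it formed the low set. Control 1, Control 3 and Diabetic 1 were high, and Control 4, Diabetic 2 and Diabetic 3 were low, so that each genotype had libraries in both sets. The gap at the threshold was wide, with 16.4 RPKM in Diabetic 1, the lowest of the high set, and 2.06 RPKM in Control 4, the highest of the low set. Because the sets were chosen by a value of these same libraries, every high against low difference below is a description and carries no test.

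Whole islets came from adult male littermates, were hand picked and frozen, and polyA RNA of each preparation was sequenced. Control islets were *Irs2*+/+ with *Cdk4* wt/wt (3 libraries), Diabetic islets were *Irs2*-/- with *Cdk4* wt/wt (3 libraries), and Rescue islets were *Irs2*-/- with *Cdk4* R24C/R24C (2 libraries, in neither set). The *Irs2* deletion and the *Cdk4* change, an allele that INK4 inhibitors cannot restrain, were carried in all tissues of the mice. Both Rescue libraries are given beside the sets because the fit of the 6 libraries did not use them. Both had *Clk1* above the threshold, and they count as high where all 8 libraries are used.

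Most mRNAs leave the nucleus soon after splicing, but a minority of polyadenylated transcripts stay. Long non-coding RNAs such as *Malat1* and *Neat1* act at nuclear speckles and paraspeckles and are not translated. Transcripts of CLK kinases and of many SR proteins keep certain introns, known as detained introns, and wait in the nucleus with them until splicing is finished. Transcripts with detained introns are still polyadenylated and can therefore enter a polyA library.

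The high set held 14315976, 12293819 and 13365809 reads in genes and the low set 13444281, 10289662 and 12340788, so the sets overlapped in depth. Beta cell markers were abundant in all 6 libraries, with *Ins2*, an insulin gene, at 54226 RPKM in Diabetic 1 and 106702 RPKM in Diabetic 3, the lowest and the highest. *Irs2* itself, whose protein couples insulin and IGF1 receptors to downstream kinases, was at 5.14, 11.0 and 6.74 RPKM in Control 1, 3 and 4 and at 36.3, 31.6 and 22.0 RPKM in Diabetic 1, 2 and 3. The deleted gene was thus higher, not lower, in the libraries labelled Diabetic (1.97 ± 0.28 SE on the log2 scale at the same set, limma, adjusted p = 0.0135). A value per gene does not show which exons were read, so it does not check the deletion, and Control, Diabetic and Rescue below name the libraries by their labels.

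Small RNA genes inside introns included the gene with the largest difference of all and are described first. A microRNA or snoRNA locus within an intron is removed with that intron, so polyA reads over it come from RNA in which the intron is still present or from other RNA of the locus, and do not measure the mature small RNA. The hairpins below (RefSeq, GRCm38.p6) are those whose loci carried the largest differences or shared a seed, and capitals mark bases 2 to 8 of each annotated mature microRNA.

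Mir5125: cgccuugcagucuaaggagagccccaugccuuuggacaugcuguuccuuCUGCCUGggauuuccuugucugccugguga

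Mir186: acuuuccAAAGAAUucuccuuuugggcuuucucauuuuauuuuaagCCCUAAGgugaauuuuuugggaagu

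Mir7-1: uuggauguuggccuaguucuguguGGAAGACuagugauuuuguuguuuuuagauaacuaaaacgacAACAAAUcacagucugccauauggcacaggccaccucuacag

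Mir7-2: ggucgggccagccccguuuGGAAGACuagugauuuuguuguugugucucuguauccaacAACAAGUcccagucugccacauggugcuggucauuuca

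Mir1898: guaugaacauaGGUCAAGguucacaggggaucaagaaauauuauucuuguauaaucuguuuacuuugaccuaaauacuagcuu

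*Mir5125* lies at chr17:23823291-23823369 on the plus strand in an intron of *Srrm2*, and *Mir186* at chr3:157544279-157544349 on the plus strand in an intron of *Zranb2*. *Mir7-1* (chr13:58392779-58392886, minus strand, in an intron of *Hnrnpk*) and *Mir7-2* (chr7:78888277-78888373, plus strand, no host) carry the same 5p seed, GGAAGAC, of miR-7, a microRNA known to be abundant in islets. *Mir1898* lies at chr15:12171492-12171574 on the plus strand in an intron of *Zfr*. In the pair of C/D box snoRNAs below (GENCODE M21, GRCm38), capitals mark a TGATGA and a downstream CTGA, the letters of the C and the D box on the strand shown.

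DQ267102: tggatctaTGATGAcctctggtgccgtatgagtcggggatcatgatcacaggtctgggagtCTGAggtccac

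Snord49a: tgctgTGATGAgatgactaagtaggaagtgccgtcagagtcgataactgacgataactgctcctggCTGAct

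DQ267102 lies at chr12:109656345-109656416 on the plus strand in an intron of *Rian*, an imprinted non-coding gene next to *Meg3*, and *Snord49a* at chr11:62603450-62603521 on the plus strand in an intron of 2410006H16Rik. Of 454 annotated snoRNA transcripts of 60 to 100 bases, 318 (70.0%) held TGATGA upstream of CTGA on their own strand, so the motif is common to the class and not particular to these members.

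Reads over all 571 small RNA genes annotated within introns of a host on the same strand summed to 34.2, 22.9 and 26.2 per 1000000 reads in genes (RPM) in Control 1, Control 3 and Diabetic 1. In the low set the sums were 3.35, 2.82 and 3.48 RPM in Control 4, Diabetic 2 and Diabetic 3. The sets did not overlap, with means of 27.8 ± 5.85 (SD, n = 3) and 3.22 ± 0.352 (SD, n = 3) RPM and a ratio of 8.63. Both Rescue libraries, at 31.6 and 26.0 RPM, lay with the high set. No filter on low values was applied to these sums, and the grouping by place in a host was chosen after the values were seen.

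The reads came from many loci. In total 1121 reads fell on intronic small RNA genes in the high set and 117 in the low set, and without *Mir5125*, the largest contributor, the totals were 820 and 113. Between 87 and 107 loci had a read in each high library, and 19 to 23 in each low library. Small RNA genes elsewhere did not share the size of this difference: the 273 over an exon or a retained intron of a host had 93 and 44 reads, and the 348 without a host had 1765 and 1319. *Mir6236*, which held most of the reads without a host, had 555, 415 and 355 reads in the high set and 538, 359 and 172 in the low set, and these overlapped.

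*Mir5125* had the largest difference of any gene, with 131, 73 and 97 reads in Control 1, Control 3 and Diabetic 1 and 1, 0 and 3 reads in Control 4, Diabetic 2 and Diabetic 3. Its level was 5.54 ± 0.50 (SE) higher in the high set on the log2(RPKM + 1) scale, whereas its host *Srrm2*, a scaffold protein of nuclear speckles, was higher by 1.31 ± 0.16. Each Rescue library had 66 reads over this locus. Over *Mir186*, DQ267102 and *Mir7-2* below, Rescue 1 had 1, 1 and 0 reads and Rescue 2 had 7, 8 and 6. Over *Mir7-1* Rescue 1 and 2 had 9 and 4. *Mir186* had 19, 9 and 6 reads in the high set and none in the low set. Against a floor of 3 reads over the low set together this was a ratio of 10.2, which leaves out the error of the high counts. As no low library had a read, *Mir186* passed the filter only through the high set. So did DQ267102, *Mir7-1* and *Mir7-2* below.

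DQ267102 had 21, 13 and 13 reads against none (a ratio of 14.1 by the same floor), and *Mir7-1* had 12, 13 and 6 against none (9.33). *Hnrnpk*, the host of *Mir7-1*, was at 64.7, 70.7 and 68.8 RPKM in the high set and 65.4, 54.8 and 51.7 RPKM in the low set, and the sets overlapped. *Mir7-2*, with the same seed and no host, had 2, 5 and 7 reads against none (4.21), at counts too low to rank it against *Mir7-1*. *Mir1898* had 16, 3 and 7 reads in the high set and 1 read in all in the low set, in Diabetic 3. Its host *Zfr*, a zinc finger RNA-binding protein, was higher by only 0.07 ± 0.15 on the log2 scale.

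SnoRNA genes within introns were also read mainly in the high set, while some of their hosts hardly differed. *Snora31* had 10, 6 and 16 reads in the high set and none in the low set, while its host *Tpt1* differed by 0.01 ± 0.15 on the log2 scale. *Snora41* had 10, 5 and 11 reads against none, with a difference of -0.01 ± 0.14 in its host *Eef1b2*, a translation elongation factor. *Snord73a* had 4, 3 and 5 reads against none, with -0.02 ± 0.13 in its host *Rps3a1*, a ribosomal protein gene. *Snord49a* had 3, 3 and 10 reads against none, and its host was higher by 0.82 ± 0.11.

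**Figure D1:**
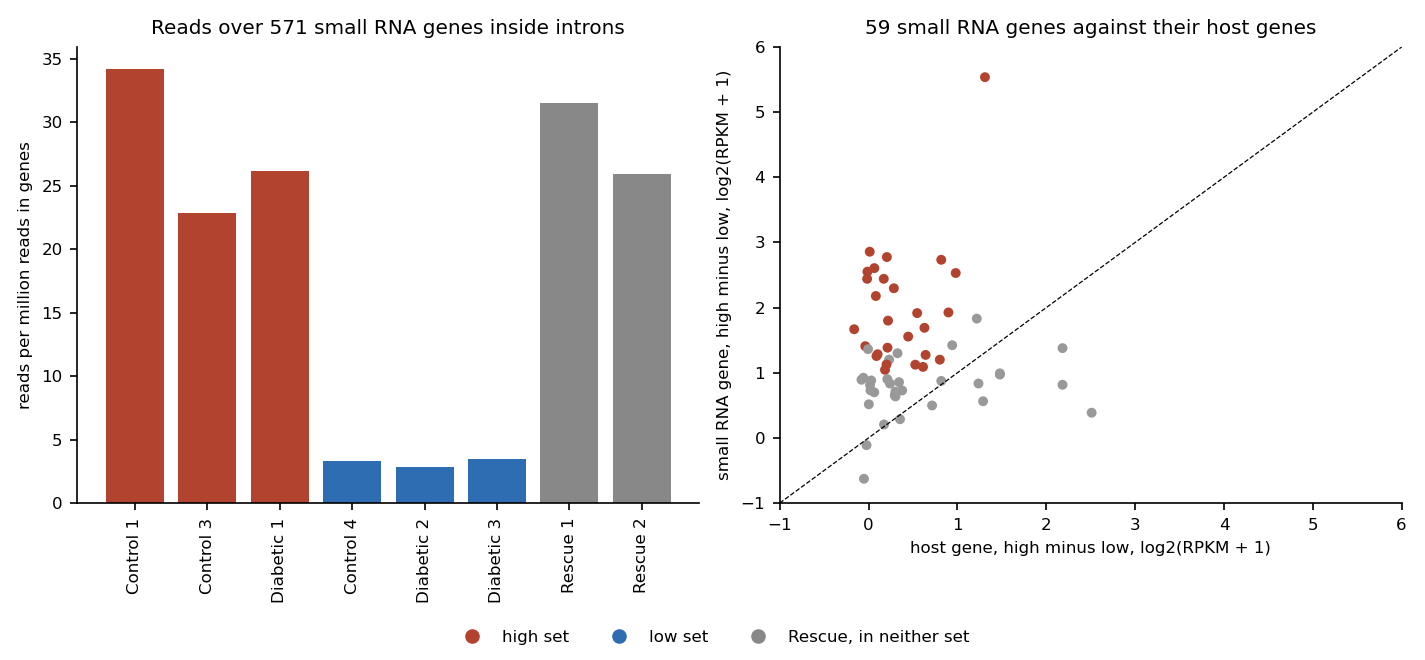
Left, RPM summed over the 571 small RNA genes within introns, one bar per library, with 22.9 to 34.2 in the high set, 2.82 to 3.48 in the low set and 26.0 and 31.6 in Rescue. Right, high minus low on the log2(RPKM + 1) scale of the 59 such genes whose host was also in the fit against that of the host. Red marks small RNA genes apart between the sets, and 48 of 59 lie above the dashed line of equality. Genes without reads in the low set passed the filter only through the high set, so the 48 were in part fixed.

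In the fit across genes, 69 intronic small RNA genes were present and 59 had a host that was present too. Among these, 48 of 59 were higher than their host, and the 56 hosts had a median of 0.29 on the log2 scale. The other 11 included *Mir453* and *Mir154* at 1.38 and 0.82 in *Mirg* (2.18), a non-coding host, and *Mir6975* at 0.56 in the coding host *Ddx39b* (1.29). Of the 69, 42 had no read in any low library. They passed the filter only through the high set, so a difference above that of the host was in part fixed. Their fitted values depend on the pseudocount. Whether reads were counted by strand is not given in the sources used here.

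Across all 11672 genes in the fit (of 24123, kept where 2 or more of the 6 libraries reached 1 RPKM), 354 were apart and higher in the high set (3.03%) and 5 were apart and lower (0.0428%). Apart means a difference of at least 1 on the log2(RPKM + 1) scale at the same genotype, with the 3 high libraries all above or all below the 3 low ones. Without the size limit, 2880 genes did not overlap with the high set above (24.7%) and 158 with it below (1.35%). The asymmetry was in part shared by all genes, whose median was 0.12 and of which 71.4% were above 0. Under median-of-ratios, TMM and quantile scaling this median moved to -0.05, -0.03 and -0.06, and the list medians below are therefore also given relative to it.

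Of the 354 genes, 279 were higher by at least 1 both within Control (2 libraries against 1) and within Diabetic (1 against 2). Their median was 1.31 within Control and 1.39 within Diabetic, and the smallest differences were 0.15 and 0.73. A difference above 0 in both genotypes was fixed by the way the 354 were chosen, and its size could still vary, as in *Hspa1b* (3.05 within Control and 5.01 within Diabetic). Over all 11672 genes the differences within Control and within Diabetic, which share no library, correlated at r = 0.60 as a description across genes, which are not independent replicates. Of the total variance of the 6 libraries, the set after genotype took 32.7% and genotype after the set took 38.7%.

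**Figure D2:**
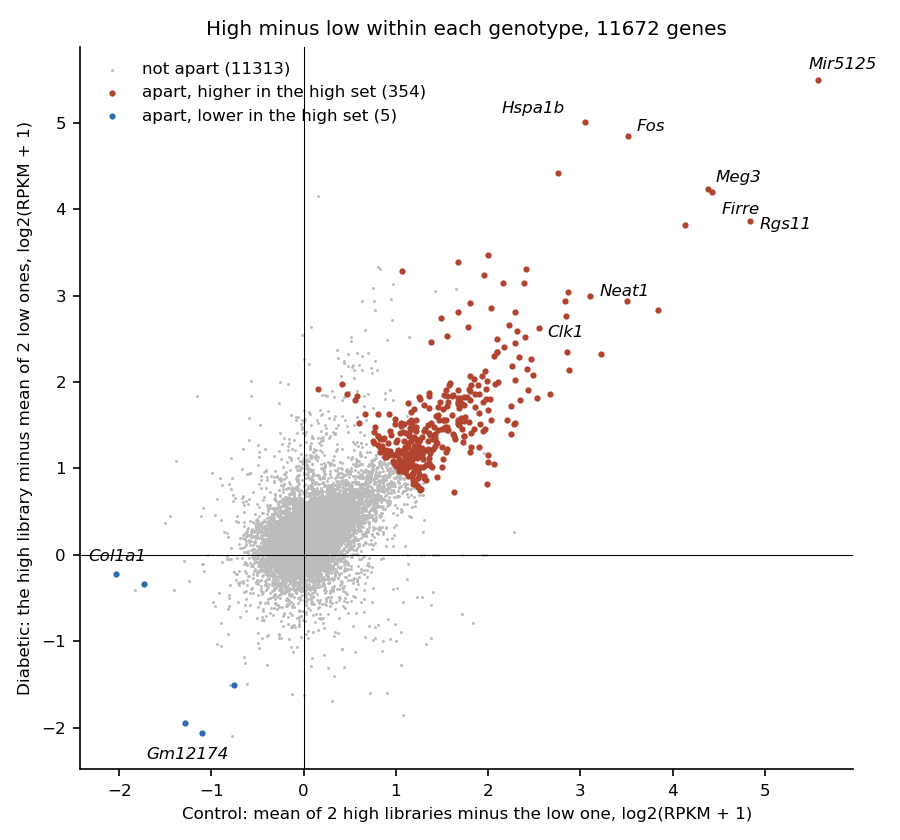
High minus low on the log2(RPKM + 1) scale within Control (horizontal, mean of 2 high libraries minus 1 low) and within Diabetic (vertical, 1 high minus mean of 2 low), one point per gene for 11672 genes. The 354 genes apart and higher (red) lie in the upper right, from 0.15 upward within Control and from 0.73 upward within Diabetic, and the 5 apart and lower (blue) lie in the lower left.

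Rescue libraries, which took no part in choosing the genes, lay mainly above the low set. Both were above all 3 low libraries in 327 of the 354 genes (92.4%), against 4784 of all 11672 genes (41.0%). The 354 were chosen with the low set lowest, so a further library lies above it more easily than in other genes. In 178 of the 354 both were at or above the lowest high library. The same count over all genes was not made, so the 178 do not measure closeness to the high set. As Rescue islets differ from the others in genotype, their genotype and their set cannot be told apart.

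The 4 marker genes showed the split with different sharpness. *Clk1* (chr1:58410189-58424066, minus strand), which chose the sets, was at 17.1, 16.6 and 16.4 RPKM in the high set and 2.06, 1.79 and 1.84 RPKM in the low set. *Clk4* (chr11:51261730-51281766, plus strand), a kinase of the same family, was at 13.4, 11.1 and 14.2 RPKM against 2.08, 1.94 and 2.04 RPKM. The spread within each set was small for both kinases beside the gap between the sets, 2.59 ± 0.09 (SE) for *Clk1* and 2.22 ± 0.12 for *Clk4* on the log2 scale. Each has 7 annotated transcripts with a retained intron, and Rescue 1 and 2 had *Clk1* at 20.8 and 20.5 RPKM and *Clk4* at 13.6 and 11.7 RPKM.

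*Neat1* (chr19:5824708-5845478, minus strand), the RNA scaffold of paraspeckles, was at 20.9, 8.93 and 12.4 RPKM in the high set and 0.713, 0.685 and 0.679 RPKM in the low set. The low libraries were nearly equal while the high ones varied, and the ratio of means was 20.3. *Malat1* (chr19:5795690-5802672, minus strand), a speckle-associated RNA from the neighbouring locus, was at 554, 180 and 248 RPKM against 89.3, 110 and 98.0 RPKM. It had the smallest difference of the 4 (1.53 ± 0.41), with Control 3 less than 2-fold above the low set's highest library, and the widest spread, with 1395 RPKM in Rescue 1 and 261 RPKM in Rescue 2.

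**Figure D3:**
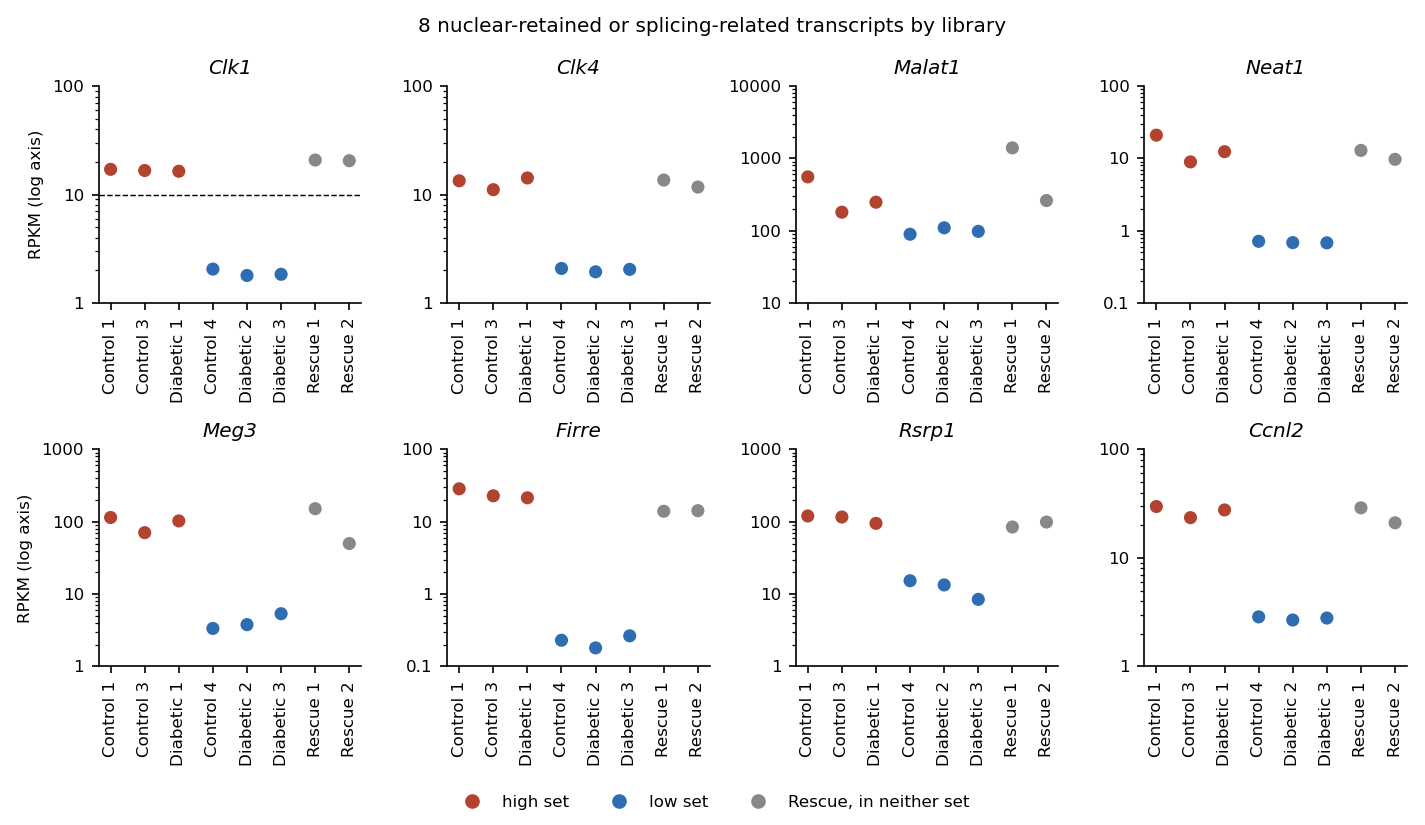
RPKM on a log axis of 8 nuclear-retained or splicing-related transcripts, one point per library, with the *Clk1* threshold of 10 RPKM dashed. The high libraries lie above the low ones in every panel, by 20.3 times in mean for *Neat1* and 3.31 times for *Malat1*, and both Rescue libraries lie above the low set.

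Nuclear long non-coding RNAs were among the genes with the largest differences. Of 11 listed RNAs in the fit, 7 were apart and higher (background 3.03%), with a list median of 1.53, which was 1.41 above that of all genes. The list holds the markers *Malat1* and *Neat1*, known from these data to vary with *Clk1*. Its count and median were therefore in part fixed. *Firre* (chrX:50555744-50635321, minus strand), a repeat-rich RNA that organizes nuclear chromatin contacts, was at 28.5, 22.8 and 21.4 RPKM in the high set and 0.230, 0.180 and 0.265 RPKM in the low set. *Meg3* (chr12:109541001-109571726, plus strand), an imprinted RNA expressed from the maternal allele, was at 114, 70.6 and 103 RPKM against 3.35, 3.78 and 5.35 RPKM. Both differed by 4.31 on the log2 scale, with an SE of 0.13 for *Firre* and 0.21 for *Meg3*.

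*Mirg*, a microRNA host of the same imprinted region as *Meg3*, moved in parallel at 6.18, 3.31 and 5.98 RPKM against 0.327, 0.395 and 0.438 RPKM. *Snhg11*, a snoRNA host, was at 3.54, 4.11 and 8.49 RPKM against 0.0742, 0.0655 and 0.0823 RPKM. *Ftx*, a non-coding gene of the X-inactivation centre, was at 4.27, 3.11 and 2.88 RPKM against 0.647, 0.367 and 0.462 RPKM. These 3 were apart at far lower levels than *Meg3*. The other 4 of the list were not apart: *Peg13* (38.1, 57.6 and 30.5 against 43.1, 38.1 and 42.8 RPKM) and *Tug1* (12.2, 13.4 and 12.1 against 15.6, 11.1 and 9.42 RPKM) overlapped fully, and *Dleu2* and *Airn* differed by 0.19 and 0.73.

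Splicing regulators included the list with the largest median, the CLK kinases, at 1.90. This list holds *Clk1*, which chose the sets, so its median and its count of genes apart were in part fixed. Of the others, *Clk4* differed by 2.22, *Clk2* by 1.58 and *Clk3* by 0.97. All 4 CLK kinases were above the low set without overlap and 3 were apart (beside 3.03% of all genes), with *Clk2* at 11.4, 8.27 and 8.10 RPKM against 2.92, 1.77 and 1.78 RPKM and *Clk3* just under the limit at 0.97. Among 31 SR proteins and SR-related factors, 11 were apart and higher (35.5%) and 23 did not overlap above (background 24.7%), with a median of 0.79, which was 0.67 above all genes. None of either list was called by genotype at the same set, beside 4.93% of all genes called higher and 7.59% called lower in Diabetic islets.

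*Rsrp1* (chr4:134923592-134927671), an SR-related gene, had the largest difference of its list, 2.96 ± 0.17, with 120, 116 and 94.9 RPKM against 15.3, 13.4 and 8.45 RPKM. *Srsf5*, an SR splicing factor, was at 110, 92.3 and 86.4 RPKM against 20.2, 18.4 and 18.04 RPKM. *Srsf7* was at 59.4, 47.9 and 46.0 RPKM against 21.8, 13.6 and 11.0 RPKM. All 3 are abundant transcripts whose sets were well separated. The other 8 were *Pnisr* (1.94), *Arglu1* (1.79), *Nktr* (1.49), *Srsf11* (1.32), *Srrm2* (1.31), *Srek1* (1.19), *Sfswap* (1.18) and *Srsf2* (1.14) on the log2 scale.

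RNA-binding proteins and helicases had a lower list median. Of 28 RBM, LUC7L and DEAD box genes, 7 were apart and higher (beside 3.03% of all genes), with a median of 0.70. They included *Ddx5* (218, 196 and 159 against 84.8, 67.4 and 128 RPKM) and *Ddx17* (92.7, 95.3 and 89.0 against 24.4, 24.8 and 54.5 RPKM), helicases of transcription and splicing, in which Diabetic 3 lay highest of the low set. The others were *Ddx39b*, an mRNA export helicase (1.29), *Rbm5* (1.27), *Luc7l* (1.11), *Rbm39* (1.06) and *Luc7l2* (1.01).

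Core components of splicing had a list median nearer to that of all genes. Of 50 snRNP proteins of the spliceosome core, 5 were apart (beside 3.03% of all genes), and the median was 0.20, beside 0.12 for all genes. *Snrnp70*, the U1 protein, was at 48.6, 30.9 and 36.4 RPKM against 6.38, 8.08 and 9.85 RPKM (2.17 ± 0.21), and *Prpf39* (1.79), *Snrnp48* (1.39), *Prpf40b* (1.05) and *Sf3b1* (1.02) were the others. Of 24 hnRNP genes, *Hnrnph1* (1.38), *Hnrnpdl* (1.15) and *Ptbp2* (1.15) were apart (12.5%), with a list median of 0.24.

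Cyclin L, a partner of transcription and splicing kinases, gave both of the 2 apart among 15 genes of cyclin L and transcription kinases (13.3%, against 3.03% of all genes): *Ccnl2* (chr4:155812489-155824543) was at 29.7, 23.5 and 27.7 RPKM against 2.86, 2.68 and 2.79 RPKM, and *Ccnl1* at 10.1, 8.31 and 10.5 RPKM against 1.75, 1.88 and 2.03 RPKM. Of 41 genes of nonsense-mediated decay, the nuclear exosome and mRNA export, *Leng8* (2.77), *Zfc3h1* (1.73), a protein of nuclear RNA decay, and *Nxf1* (1.22), the main mRNA export receptor, were apart (7.32%). Of 17 snoRNA host genes 5 were apart (29.4%): *Snhg20* (1.84), *Snhg15* (1.78), *Snhg1* (1.19), *Snhg12* (1.05) and *Snhg6* (1.01). The list median of 0.67 rested on low transcripts, since relative to all genes it was 0.55, and -0.048 with a mean of at least 5 RPKM.

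**Figure D4:**
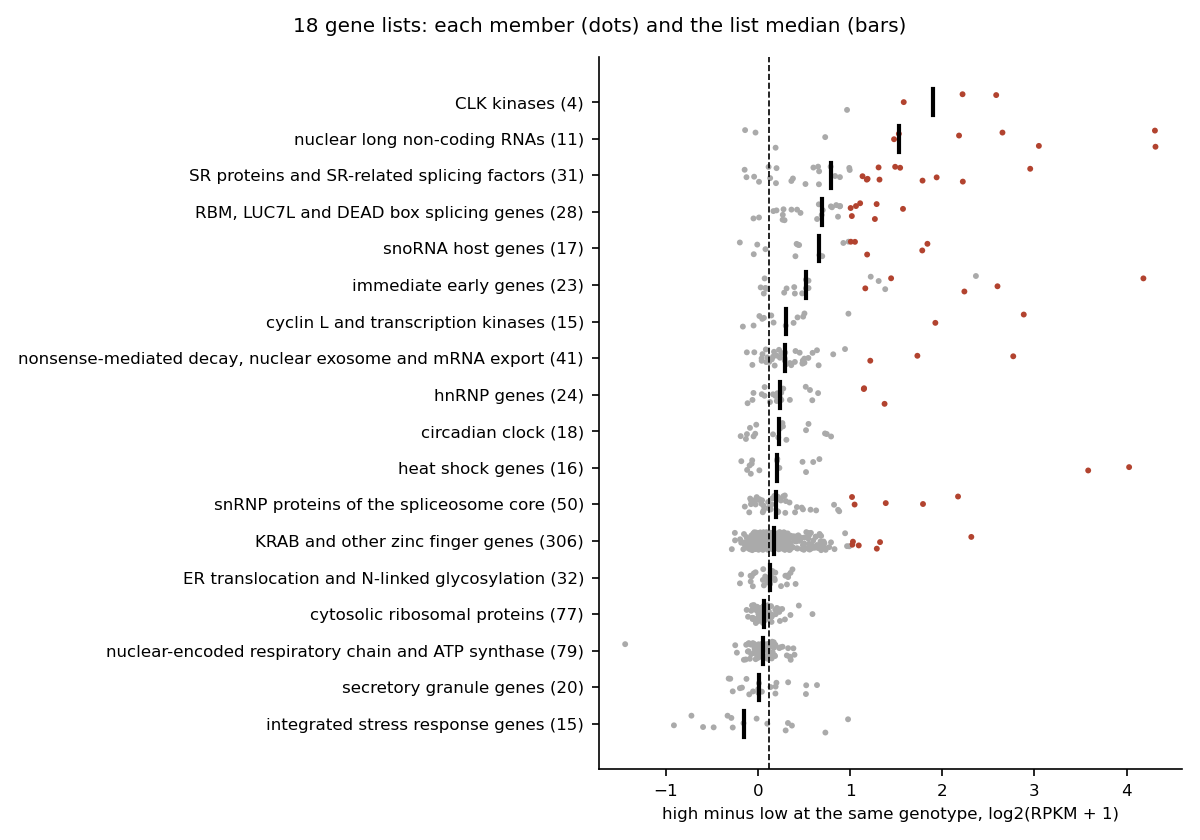
High minus low at the same genotype on the log2(RPKM + 1) scale for 18 gene lists, with one dot per gene (red where apart), a bar at the list median, the number of genes in brackets and a dashed line at the median of all genes, 0.12. Medians run from 1.90 for CLK kinases, which include *Clk1* itself, to -0.16 for integrated stress response genes. Nuclear long non-coding RNAs, which include the markers *Malat1* and *Neat1*, are at 1.53.

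Among genes of no list, *Rgs11* and *Pcsk4* stood out. *Rgs11* (chr17:26202951-26211324, plus strand), a regulator of G protein signalling with 8 annotated retained-intron transcripts, was at 44.8, 34.2 and 17.6 RPKM in the high set and 0.401, 0.265 and 0.278 RPKM in the low set (4.35 ± 0.23). It overlaps *Arhgdig* on the opposite strand, which was at 3.48 RPKM in Control 1 and 3.41 RPKM in Control 4, so reads of the 2 genes cannot be told apart if strand was not used. *Pcsk4* (chr10:80321283-80329498, minus strand), a proprotein convertase best known from germ cells, was at 17.4, 9.75 and 8.42 RPKM against 0.237, 0.220 and 0.237 RPKM (3.22 ± 0.24). The 3 genes without a name that differed most were A230057D06Rik (2.51), 4933439C10Rik (2.05) and 2900005J15Rik (2.03).

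*Gipr*, the receptor of the incretin GIP, was the only beta cell marker of 17 that was apart. It was at 60.2, 41.8 and 18.8 RPKM in the high set and 8.11, 3.07 and 4.39 RPKM in the low set (2.28 ± 0.20), with 38.4 and 26.8 RPKM in Rescue. At the same set it was also lower in Diabetic than in Control islets by 1.17 on the log2 scale (limma, adjusted p = 0.0186). The median of the 17 markers was -0.30, and *Glp1r*, the related GLP-1 receptor, was at 67.2, 75.5 and 57.5 RPKM against 91.9, 56.8 and 48.0 RPKM with overlap.

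Immediate early genes, transcription factors and feedback regulators induced within minutes of a stimulus, divided the libraries in another way. Of 23 in the fit, *Fos*, *Jun*, *Fosb*, *Dusp1* and *Zfp36* were apart and higher (21.7%, against 3.03% of all genes), and the median was 0.52. *Fos* (chr12:85473890-85477273) was at 12.02 RPKM in Control 1, 82.2 in Control 3 and 124 in Diabetic 1, against 1.88, 4.43 and 2.45 RPKM in the low set. *Jun* was at 12.8, 55.8 and 83.4 RPKM against 6.23, 7.49 and 8.33 RPKM. Control 1, which had the highest *Clk1* of the 6, was nearer to the low set than to the other high libraries in both.

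*Fosb* was at 0.626 RPKM in Control 1 and 6.98 RPKM in Diabetic 1, with Control 3 between them, against 0.0563, 0.223 and 0.0624 RPKM in the low set. *Dusp1*, a phosphatase that ends MAP kinase signals, was at 7.88, 14.7 and 18.7 RPKM against 4.38, 5.76 and 4.02 RPKM. *Zfp36*, an mRNA decay factor, was at 5.40, 9.82 and 17.3 RPKM against 5.02, 4.63 and 3.50 RPKM, with Control 1 only just above Control 4. *Egr1*, with 5.77, 33.0 and 45.5 RPKM against 3.82, 7.50 and 2.57 RPKM, was not apart because Control 1 fell below Diabetic 2. In Rescue 2 the levels of *Fos* (200 RPKM), *Jun* (80.0) and *Dusp1* (47.4) were above those in Rescue 1 (23.5, 26.3 and 15.9 RPKM), although *Clk1* differed little between these libraries.

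The inducible heat shock genes *Hspa1a* and *Hspa1b* showed the pattern of *Fos*. *Hspa1b* (chr17:34956436-34959238) was at 5.67, 49.8 and 61.5 RPKM in Control 1, Control 3 and Diabetic 1 and at 1.23, 0.929 and 0.945 RPKM in the low set, and *Hspa1a* (chr17:34969190-34972156) at 3.73, 35.4 and 46.0 RPKM against 0.947, 0.940 and 1.497 RPKM. Their sequences are nearly identical, so the counting could have split reads between them and the separate values are uncertain. The other 14 heat shock genes in the fit were not apart (2 of 16 apart, 12.5%, against 3.03% of all genes), and the list median was 0.21.

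**Figure D5:**
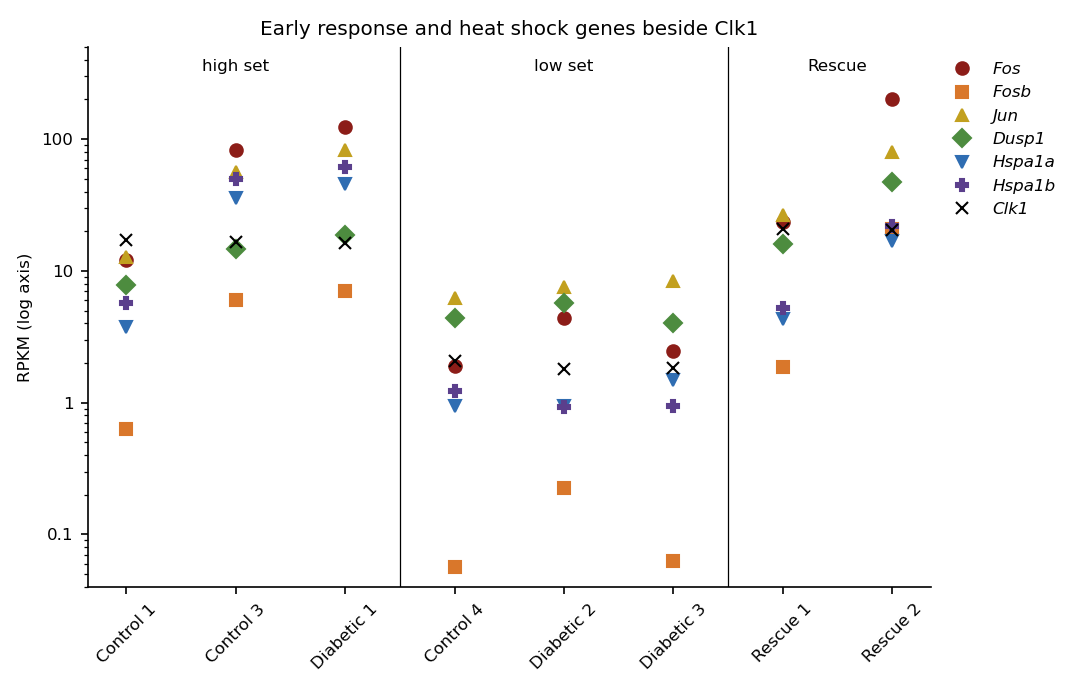
RPKM on a log axis of 4 immediate early genes, *Hspa1a*, *Hspa1b* and *Clk1* (crosses) in each library. *Clk1* is level across the high set at 16.4 to 17.1 RPKM, whereas *Fos* runs from 12.02 RPKM in Control 1 to 124 RPKM in Diabetic 1.

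Lymphocyte markers, like *Fos* and *Hspa1b*, were highest of the 6 libraries in Diabetic 1 and lower in Control 1 than in Control 3, but elsewhere the order differed. Summed over the list they were at 7.77, 32.3 and 210 RPKM in the high set, 7.72, 64.0 and 7.28 RPKM in the low set, and 828 and 566 RPKM in Rescue. Diabetic 2 was thus above Control 3 in this sum but below it in *Fos* (4.43 and 82.2 RPKM). Rescue 1 was likewise above Rescue 2 in the sum and below it in *Fos* (23.5 and 200 RPKM). Of the 8 of 11 markers in the fit none was apart, and all 8 had a difference between 1.28 and 2.15, with a median of 0.66 within Control and 2.40 within Diabetic. Control 1 was as low in them as Control 4, and *Ms4a1* was at 0 in Control 1, while *Jchain* was at 0 in Diabetic 3. Their part in the differences of *Fos* and *Hspa1b* was not tested.

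Between Control 1 and Control 4, whose lymphocyte sums were 7.77 and 7.72 RPKM, *Meg3* was at 114 and 3.35 RPKM and *Firre* at 28.5 and 0.230 RPKM, a comparison of 1 library with 1. Macrophage markers summed to 60.9, 73.4 and 178 RPKM in the high set and 111, 251 and 92.5 RPKM in the low set, and none of 8 was apart. Acinar markers ranged from 92.1 to 701 RPKM with none of 14 apart. In bulk islets, fewer cells of a type and less RNA per cell cannot be told apart.

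Only 5 genes were apart and lower in the high set, of which 2 were collagens. *Col1a1* and *Col3a1*, fibrillar collagens of fibroblasts and stellate cells, were at 0.757, 0.728 and 4.23 RPKM and at 2.22, 1.44 and 7.07 RPKM in the high set, against 6.15, 5.86 and 4.37 RPKM and 8.30, 9.57 and 8.90 RPKM in the low set. The 2 Control libraries made most of this difference, since Diabetic 1 was just below the low set in *Col1a1*. Over the whole fibroblast list the sums overlapped, at 60.4, 46.0 and 96.0 RPKM against 77.1, 123 and 92.5 RPKM, and no other member was apart.

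The remaining 3 were *Rps27rt*, a retrotransposed copy of a ribosomal protein gene, at 37.0, 106 and 44.5 RPKM against 107, 127 and 128 RPKM, and the processed pseudogenes Gm15772 (9.83, 38.8 and 16.9 against 49.5, 66.4 and 69.0 RPKM) and Gm12174 (4.72, 24.9 and 7.12 against 25.1, 33.5 and 32.5 RPKM). In all 3, Control 3 was the highest of the high set and close to Control 4. They share sequence with functional genes and their counts are uncertain for that reason. With the Rescue libraries included as high libraries, none of the 5 remained apart.

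Several other gene lists had few or no members apart. None of 77 cytosolic ribosomal protein genes, 79 genes of the respiratory chain and ATP synthase, 32 of ER translocation and N-linked glycosylation, 20 secretory granule genes, 18 clock genes or 15 integrated stress response genes was apart. Their medians were 0.07, 0.06, 0.13, 0.01, 0.23 and -0.16, beside 0.12 for all genes. Of 306 zinc finger genes 6 were apart, a share of 1.96% that was below the 3.03% of all genes, and the list median was 0.18. Without the size limit, 106 of the 306 did not overlap with the high set above, beside 2880 of all 11672 genes (24.7%). The largest difference was in *Zfp692* at 9.38, 7.19 and 7.01 RPKM against 0.823, 0.758 and 0.516 RPKM. The other 5 were *Zfp579* (1.33), *Zfp950* (1.29), *Zfp715* (1.10), *Zfp280c* (1.03) and *Zfp641* (1.02) on the log2 scale.

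The gene models behind the deposited values include intron-retaining transcripts. Of 7364 genes whose exon length changes when such transcripts are left out, 86.3% had values matching the length with them within 0.5% and 1.78% matched the length without. Reads in annotated retained introns therefore count toward the gene in these data. Among protein-coding genes, 229 of the 292 that were apart and higher (78.4%) had such a transcript, against 6686 of 11287 in the fit (59.2%).

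The share apart and higher increased with the number of retained-intron transcripts, from 1.37% of 4601 genes with none to 1.88% with 1 to 2, 4.78% with 3 to 5 and 10.6% of 498 genes with 6 or more. It was 5.09% in the fifth of genes with the highest GC content of their exons and 1.51% to 2.79% in the others. It was 4.34% in the fifth with the shortest span on the genome and 0.58% in the fifth with the longest, and 1.11% and 3.68% in those with the fewest and the most exons. The 292 genes had a median span of 14300 bases and 12 exons, against 24289 bases and 9 exons over all protein-coding genes. How much each of these related properties contributes was not tested.

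By class, 292 of the 354 (82.5%) were protein coding, 25 (7.06%) long non-coding and 34 (9.60%) small RNA genes, against 96.7%, 2.13% and 0.87% in the fit. Small RNA genes without reads in the low set had to differ once they passed the filter, and 29 of the 354 had no read in any low library.

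The 10 genes whose level followed *Clk1* most closely over the 6 libraries, after removal of each genotype's mean, were *Tcea2*, *Fbxl12*, *Nudt13*, *Zfp276*, *Dus3l*, *Gria2*, *Fastkd3*, *Zgpat*, *Idh3b* and *H2-K2*, with r from 0.9987 to 0.9996. Likeness did not require a large difference. *Tcea2*, a transcription elongation factor, was at 4.51, 4.38 and 3.83 RPKM against 0.701, 0.344 and 0.404 RPKM (1.75 on the log2 scale). *Idh3b*, a subunit of the mitochondrial isocitrate dehydrogenase, was at 20.2, 20.3 and 17.4 RPKM against 12.6, 11.0 and 11.1 RPKM (0.63). *Fastkd3*, a mitochondrial RNA regulator, differed by only 0.32. With 6 libraries in 2 separate sets these correlations describe the split and no gradual relation.

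Genotype was not used by the rule and was tested at the same set. Between Diabetic and Control islets, 576 genes were called higher (4.93%) and 886 lower (7.59%) by limma at an adjusted p under 0.05 (2-sided, Benjamini-Hochberg over 11672 genes). Among the 354 genes apart between the sets, 4 were called higher and 18 lower in Diabetic islets. The direction of the calls depended on the scaling, with 39.4% of calls higher as deposited, 53.8% under median-of-ratios and 54.3% under TMM scaling. No label says whether libraries of a genotype are separate mice, so the p-values measure only the spread between these libraries.

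The counts rested on single libraries. Without Diabetic 1, the only high Diabetic library, 2 genes were called higher and 4 lower. Without Control 4, the only low Control library, 24 were called higher and 21 lower, and without Control 1, Control 3 or Diabetic 2 the counts were 157 and 274, 83 and 130, and 99 and 165. Without Diabetic 3 they were 1375 and 1435. With no term for the set, 339 genes were called higher and 553 lower, of which 883 were also called with it.

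The 5 called genes with the largest increase in Diabetic islets were *Gast* (5.67, limma adjusted p = 0.0118), *Csn3* (4.79, adjusted p = 0.0135), *Tm4sf20* (4.27, adjusted p = 0.0316), *Vgf* (4.14, adjusted p = 0.0111) and 6330403K07Rik (3.70, adjusted p = 0.00271). *Gast*, which encodes gastrin, was at 0.864, 0.170 and 1.22 RPKM in Control 1, 3 and 4 and at 159, 120 and 22.5 RPKM in Diabetic 1, 2 and 3. *Vgf*, a granule neuropeptide precursor, was at 7.57, 5.85 and 9.59 RPKM against 214, 208 and 65.0 RPKM. In both, Diabetic 2 of the low set lay near Diabetic 1 of the high set, and Diabetic 3 lay below them.

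The 5 with the largest decrease were *Cox6a2* (-4.32, limma adjusted p = 0.00374), 4931431B13Rik (-3.08, adjusted p = 0.00202), *T2* (-2.99, adjusted p = 0.00801), *Gad1* (-2.72, adjusted p = 0.0132) and *Kcnf1* (-2.59, adjusted p = 0.0190). *Cox6a2*, a subunit of cytochrome c oxidase, was at 58.5, 56.2 and 99.2 RPKM in Control 1, 3 and 4 and at 0.852, 5.19 and 9.17 RPKM in Diabetic 1, 2 and 3. *Gad1*, the enzyme that makes GABA, was at 23.5, 32.9 and 20.7 RPKM against 1.60, 3.19 and 6.33 RPKM. The genotypes did not overlap in either gene. None of these 10 genes was apart between the sets, but a large genotype difference makes that condition hard to meet. Only *Cox6a2*, 4931431B13Rik and *T2* had every high library below the low ones within each genotype. For *Cox6a2* high minus low was -0.78 within Control and -2.10 within Diabetic.

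Lists differed in how many members were called by genotype, beside 4.93% of all genes called higher and 7.59% called lower in Diabetic islets. Of 77 ribosomal protein genes 40 were called higher in Diabetic islets, and of 32 genes of ER translocation and N-linked glycosylation 19 were. None of either list was apart between the sets, a condition that a genotype difference makes harder to meet. None of the 4 CLK kinases, 31 SR factors and 11 nuclear long non-coding RNAs was called by genotype. Other lists had members of both kinds: of 23 immediate early genes 5 were apart, and 5 were called higher and 1 lower by genotype, of 28 RBM, LUC7L and DEAD box genes 7 were apart and 3 were called lower, and of 17 snoRNA hosts 5 were apart and 2 were called higher. Whether the lists differ in this respect was not tested, and the counts for the ribosomal and ER lists share the dependence on single libraries given above.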

How the data were processed

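PolyA RNA of whole islets was sequenced in paired ends, aligned to mm10 with STAR and counted per gene with HTSeq, and edgeR was used downstream (submitters' processing notes, versions not given). The authors deposited RPKM per gene and library. Every value of the 18126 genes above 0 corresponded to whole reads (tolerance 0.001), from which reads in genes per library were recovered, and depth sets the precision of low genes.

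The members and gene lists were chosen with earlier results of these data known. Here log2(RPKM + 1) of 6 libraries was fitted with genotype and set in limma 3.58.1 (R 4.3.3, empirical Bayes with a trend), and the fit was tested on simulated data. High minus low is given with its SE and without a p-value. Named are the markers, the 12 genes furthest apart in each direction, the 3 furthest without a name, list members that were apart, 5 called genes per direction and 10 genes most like *Clk1*. Gene models came from GENCODE M21 (GRCm38). Other pseudocounts, filters, scalings, covariates and omitted libraries were tried.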

Additional observations from a re-analysis of the deposited data

Results flagged for a closer look

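In 5 cases the high library or libraries differed from the low ones in opposite directions in the genotypes, on the log2(RPKM + 1) scale, with every library of an arm on its side. The difference between the genotypes was not tested in any of them, and each genotype has a single library in 1 of its sets. Secretory granule genes had a mean high minus low of -0.06 within Control and 0.19 within Diabetic. Fibroblast and stellate cell markers were at -0.82 within Control and 0.27 within Diabetic. *Gad1* was at 0.41 within Control and -1.09 within Diabetic, *Gast* at -0.59 and 1.58, and *Vgf* at -0.47 and 0.87. *Gast* was at most 1.22 RPKM in any Control library, so its value within Control compares low levels.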

How the results depend on the processing

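The count of genes apart and higher (354) was 650 with a pseudocount of 0.1 RPKM, 166 with a mean of at least 5 RPKM, 216 under quantile normalization, and 1251 or 55 with a difference of at least 0.5 or 2. It was 364 to 418 with any library left out. The count apart and lower (5) was 9 with a pseudocount of 0.1, under median-of-ratios and under TMM scaling, and 11 under quantile normalization. It was 0 with all 8 libraries, where both Rescue libraries counted as high, as they did in the genotype calls below. With the other differences the count was 21 or 0, and with a library left out it was 6 to 10. Genotype calls (576 higher and 886 lower) were 193 and 322 without a filter, 289 and 427 with all 8 libraries, 339 and 553 with no term for the set, 1069 and 1770 at an adjusted p under 0.1, and 183 and 163 with a difference of at least 1. With a library left out they ranged from 2 to 1375 and from 4 to 1435. *Clk1* (2.59) was at 3.04 and 2.81 with pseudocounts of 0.1 and 0.5, 2.42, 2.43 and 2.40 under median-of-ratios, TMM and quantile scaling, and 2.55 to 2.63 with a library left out, and *Clk4* (2.22) was at 2.63, 2.43, 2.05, 2.07 and 2.02. *Neat1* was at 4.04 with a pseudocount of 0.1. Relative to the median of all genes, CLK kinases with *Clk1* among them (1.78) were at 2.13 and 1.95 with pseudocounts of 0.1 and 0.5. Nuclear long non-coding RNAs (1.41) were at 2.29, 1.74, 2.20 with a mean of at least 5 RPKM and 1.61 under quantile normalization, and at 1.25 to 1.76 with a library left out. RBM, LUC7L and DEAD box genes (0.58) were at 0.71 with a mean of at least 5 RPKM. SnoRNA hosts (0.55) were at 0.72 with a pseudocount of 0.1, at -0.048 with a mean of at least 5 RPKM, and at 0.28 to 0.60 with a library left out. Respiratory chain genes (-0.06) were at -0.013 without a filter, -0.026 with a mean of at least 5 RPKM, 0.047 under quantile normalization and -0.151 to 0.023 with a library left out. With a library left out, snRNP proteins (0.07) ranged from -0.074 to 0.181, surveillance and export genes (0.17) from 0.11 to 0.29, and stress response genes (-0.28) from -0.34 to 0.13. The cause was not tested in any of these. In all, 48 of 64 marker gene values and 236 of 263 values of other genes moved by less than the residual spread of the fit. For lists the measure was the spread of the list mean within the sets, with genotype differences left in. By it 228 of 252 list values moved by less, and a list with a large genotype difference more easily counted as stable. Of 188 genotype tests of named genes 165 kept their call, the other 23 losing it in the same direction.

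Control 1 and Diabetic 1, and Control 3 and Diabetic 3, share a number in their labels. Their deviations from the genotype means correlated at 0.35 and -0.27. Control 1 and Diabetic 1 are both high, whereas Control 3 is high and Diabetic 3 is low. The set split alone can give such signs, so these values cannot show whether the numbers pair the libraries. With a replicate block, genotype calls were 146 higher and 175 lower with no term for the set. A block with genotype and set left no residual degrees of freedom and gave, without a test, 361 genes apart and higher, of which 242 were among the 354, 5 lower, and differences of 2.07 for *Clk4*, 1.85 for *Neat1* and -0.29 for *Malat1*, which changed sign.

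Depth limits the genes with few reads: 38 of the 354 had 3 or fewer reads in the low set together, and their size depends on the pseudocount.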
